A study of Homo sapiens with 6 samples.

Results

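DKK1 and 9 other regulators of the WNT pathway were examined in A375 cells, an established human melanoma cell line, after ozonated olive oil (OZO) was compared with its precursor olive oil (OLO). The members were taken by gene symbol from the table that the authors deposited, and all 10 were found among its 28395 genes. They were DKK1, DKK3 and SFRP1 (secreted antagonists), WNT5A (a ligand), RNF43 and ZNRF3 (membrane feedback inhibitors), AXIN2 and NKD1 (intracellular feedback inhibitors), and LEF1 and TCF7 (transcription factors). The set was chosen by role, but with the fold change of DKK1 and other values of this same contrast in view, so every fold change and p-value below is a description and none is a test of the set. Both groups were A375 cells with no genetic modification stated, a single line grown in serum-containing medium, and no untreated cells were among the samples used here. The 3 OLO libraries came from cells given 0.01% olive oil for 6 h and the 3 OZO libraries from cells given 0.01% ozonated olive oil for 6 h.

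In the canonical WNT pathway, a WNT ligand binds a Frizzled receptor and an LRP5 or LRP6 co-receptor, which frees β-catenin from a complex that otherwise marks it for destruction. β-Catenin then joins TCF/LEF factors on DNA and switches on target genes. Several of those targets, among them AXIN2, NKD1, RNF43, ZNRF3, LEF1 and DKK1, act back on the pathway, most of them as brakes, and for this reason AXIN2 and NKD1 are widely used as reporters of β-catenin activity. In melanoma the pathway is known for its part in pigment cell identity, and WNT5A, which signals largely without β-catenin, is known for its part in invasive cell states.

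DKK1 and TCF7 were the members with the largest changes, so the promoter sequences of these genes are shown first. RefSeq sequences for GRCh38.p14 were at hand for 5 of the 10 members (DKK1, LEF1, RNF43, TCF7 and WNT5A), in 8 windows of 250 bases that end just before an annotated start site. DKK3, AXIN2, SFRP1, NKD1 and ZNRF3 had no entry. The windows were searched on both strands for the TCF/LEF core, CTTTG followed by 2 letters that are each A or T. The window of DKK1 lies at chr10:52314031-52314280 on the plus strand. TCF7 has a window at chr5:134115363-134115612 and another at chr5:134123368-134123617, both on the plus strand and both inside the gene as RefSeq outlines it, before internal start sites. Capitals mark the matches to the core, read 5′ to 3′.
DKK1: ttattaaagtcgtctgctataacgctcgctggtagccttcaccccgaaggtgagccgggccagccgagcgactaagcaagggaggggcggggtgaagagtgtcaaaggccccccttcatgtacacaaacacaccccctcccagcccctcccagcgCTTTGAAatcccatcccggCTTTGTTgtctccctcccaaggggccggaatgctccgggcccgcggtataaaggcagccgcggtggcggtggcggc
TCF7, first window: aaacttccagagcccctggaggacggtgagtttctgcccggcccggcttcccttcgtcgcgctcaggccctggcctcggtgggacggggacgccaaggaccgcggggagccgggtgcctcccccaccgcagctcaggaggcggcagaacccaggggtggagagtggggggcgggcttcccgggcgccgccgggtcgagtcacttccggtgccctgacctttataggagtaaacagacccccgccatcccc
TCF7, second window: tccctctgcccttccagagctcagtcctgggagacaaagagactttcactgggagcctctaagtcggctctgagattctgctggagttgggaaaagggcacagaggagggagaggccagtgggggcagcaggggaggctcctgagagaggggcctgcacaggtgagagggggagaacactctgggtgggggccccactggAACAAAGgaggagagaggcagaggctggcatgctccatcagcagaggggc

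The DKK1 window held 2 matches on the sense strand, CTTTGAA at 95 to 89 bases and CTTTGTT at 76 to 70 bases before the start site. The second TCF7 window held 1 match, on the other strand, at 50 to 44 bases before its start site (AACAAAG as printed). No match was found in the first TCF7 window or in those of LEF1, RNF43 and WNT5A. Of the 35116 windows in the RefSeq table, 12.0% held at least 1 match and 1.21% held 2 or more. Neither the DKK1 window nor the TCF7 windows held a hypoxia response core (ACGTG or GCGTG, in 43.2% of all windows), an AP-1 site (TGANTCA, in 6.57%) or an antioxidant response core (TGACNNNGC, in 10.9%). Among the other members, 1 WNT5A window and 1 RNF43 window held a hypoxia response core and the other RNF43 window held an AP-1 site. A match describes the letters only and does not show that a factor was bound.

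No value of a single library was used, because the deposited table gives only the comparison. For each gene the table gives a log2 fold change (OZO minus OLO), a mean log2 CPM over all libraries (CPM, counts scaled to the library total) and limma's moderated t with its p-value and its adjusted p-value. From its lowest values, the typical library had 18409903 assigned reads (a geometric mean). A group level is given below as implied reads, the mean read number per library of that size that the mean and the fold change together imply, and genes with a mean of 10 or more such reads are termed well read. A group at 3 implied reads or fewer is treated as at the floor, and intervals and floors cover only these libraries. The study describes the 3 libraries of each group as coming from independent experiments. Of 8 melanocyte lineage markers, 5 were well read and TYR had no read. SOX10 had 1265 implied reads in OLO and 667 in OZO (log2 fold change −0.92, standard error 0.54). MITF had 539 and 461, S100B 60.6 and 42.9, and S100A1 57.0 and 37.7, while MLANA was higher in OZO, with 28.6 and 46.8. SOX10 made up most of the sum, which was 1960 implied reads in OLO and 1267 in OZO, and 0 of the 8 markers were called different. Their part in the values below was not tested. Leukocyte markers (PTPRC and CD3E) summed to 0.955 and 1.45 reads, fibroblast markers (COL1A1, COL1A2 and DCN) to 23.1 and 32.8, and keratinocyte markers (KRT5, KRT14 and KRT1) to 80.3 and 77.9, nearly all from KRT14.

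The first question was how many of the 10 genes differed with treatment. A gene is termed called where its adjusted p-value is under 0.05. By this measure TCF7 was higher and DKK1 was lower in OZO, which makes 2 of 10 members. Among all 28395 genes, 7.04% were called, 3.98% as higher and 3.06% as lower. Since 9 of the 10 members were well read, the nearer background is the 13773 well-read genes, of which 13.6% were called. At an unadjusted p-value under 0.05, 5 members passed, 1 higher and 4 lower, against 19.7% of all genes. As the contrast itself led to the choice of members, nothing is read from these shares. The same 2 members were called at a threshold of 0.01, and both changed more than 2-fold. With the median of the well-read genes, −0.01, as the zero point, the same 2 members were called. Taking the all-gene median as the zero point, which lowers every log2 value by 0.19, gave 5 members called, 1 higher and 4 lower. LEF1, WNT5A and SFRP1 then passed as lower. That median includes 7012 genes without a read, which all have the same fitted value of 0.33.

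**Figure D1:**
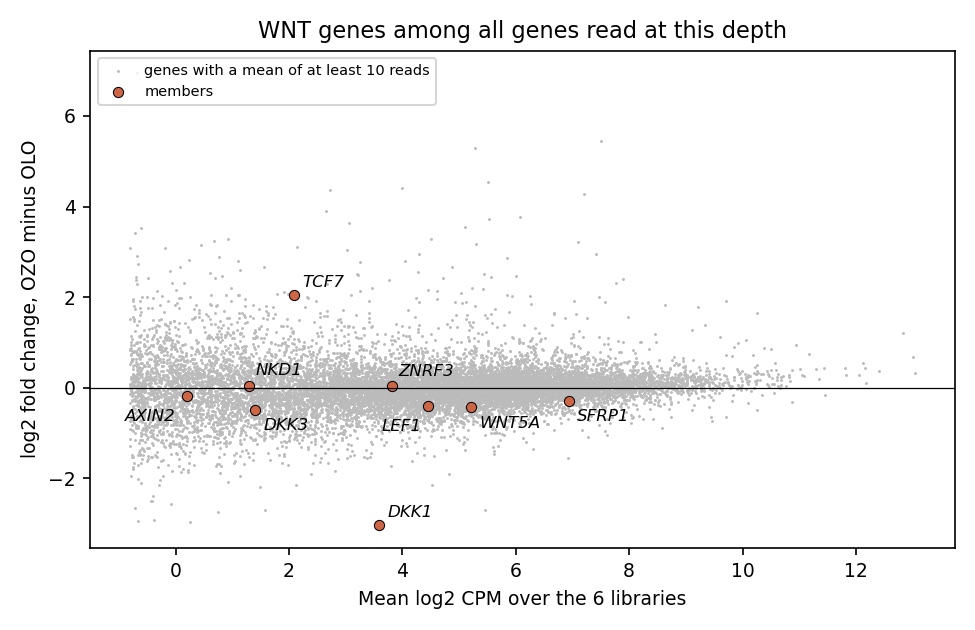
Log2 fold change (OZO minus OLO) against mean log2 CPM over the 6 libraries, for the 13773 well-read genes (grey) and the 9 members among them (orange). DKK1 lies at the lower edge of the cloud at −3.04 and TCF7 above most of it at 2.04, while the other 7 members lie between −0.48 and 0.039.

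Among the secreted antagonists, DKK1 was much lower in OZO. DKK1 (chromosome 10, 52314281 to 52317657) encodes Dickkopf-1, which binds LRP5 and LRP6 and keeps them from joining a WNT-Frizzled complex. Its level was 635 implied reads in OLO and 76.9 in OZO. DKK1 thus stood in OZO at 12.2% of its OLO level (95% interval 8.66% to 17.1%), an 8.21-fold difference. On the log2 scale the difference was −3.04 (standard error, SE, 0.19, adjusted p 0.00512 by limma's moderated test). No other well-read gene had a lower log2 fold change, so DKK1 was number 1 of 13773 in that order, and it was number 98 of 28395 by p-value. In RNA from a whole culture, fewer cells with DKK1 transcripts and fewer transcripts per cell cannot be told apart.

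DKK3 and SFRP1 did not pass. DKK3 (chromosome 11, 11963036 to 12009745), a divergent member of the Dickkopf family that does not bind LRP6 as DKK1 does, had 57.2 implied reads in OLO and 40.7 in OZO. The log2 fold change was −0.48 (standard error 0.29, adjusted p 0.285 by limma's test, 95% interval −1.24 to 0.27), so a fall to 42.4% and a rise to 121% of the OLO level both lie within the interval. SFRP1 (chromosome 8, 41261962 to 41309473), which binds WNT ligands outside the cell through a Frizzled-like domain, was the member with the most reads, 2489 in OLO and 2042 in OZO. Its log2 fold change was −0.29 (standard error 0.092, adjusted p-value 0.168 in limma's test), or 82.1% of the OLO level with an interval from 69.7% to 96.6%. The difference in SFRP1 was well measured and small, while that in DKK3 was poorly measured.

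Within the Dickkopf family, DKK1 made up most of the transcripts in both groups. To compare genes with each other, implied reads were divided by the length of the canonical transcript in GENCODE 44. Per kilobase, DKK1 had 352 implied reads in OLO and 42.6 in OZO, and DKK3 had 22.6 and 16.1. The summed level of DKK1, DKK2, DKK3 and DKK4 was 376 reads per kilobase in OLO and 59.4 in OZO, and the DKK1 share of it was 93.5% and 71.8%. DKK3 accounted for 6.02% of the sum in OLO and 27.2% in OZO, a larger share at a level that was not higher. By the same arithmetic, DKK4 had 1 read over all 6 libraries. In the SFRP family, SFRP1 held 99.7% of the summed level in OLO and 97.6% in OZO. These sums and shares have no error, since the spread of levels between libraries is not in the table.

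WNT5A, the ligand of the set, also did not pass. WNT5A (chromosome 3, 55465715 to 55505263) had 794 implied reads in OLO and 590 in OZO. For this ligand the log2 fold change was −0.43 (standard error 0.12, 95% interval −0.73 to −0.13, adjusted p 0.116 by limma's test). The interval, which is not adjusted for the number of genes, lies below 0. WNT5A accounted for 67.6% of the summed level per kilobase of the 19 WNT ligand genes in OLO and for 54.1% in OZO. It was followed by WNT9A, with 18.7% and 28.7%, and by WNT10B, with 7.73% and 10.5%. No ligand gene was called in either direction, but only 5 of the 19 were well read and 6 had no read. For the ligand genes that were not well read, depth limits what can be said.

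**Figure D2:**
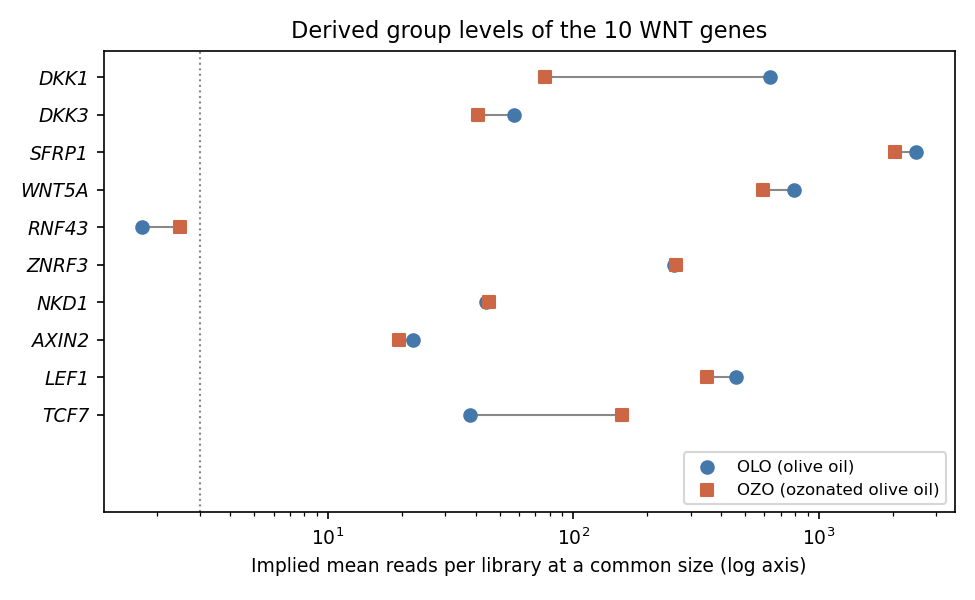
Implied mean reads per library in OLO (blue circles) and OZO (orange squares) for the 10 members on a log axis, joined by a line for each gene, with the floor of 3 reads dotted. DKK1 spans 635 to 76.9 reads and TCF7 38.0 to 157 in opposite directions, and RNF43 lies below the floor in both groups.

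The membrane feedback pair showed no called change. RNF43 and ZNRF3 are related ubiquitin ligases that remove Frizzled receptors from the cell surface, and R-spondins acting through LGR receptors counter them. ZNRF3 (chromosome 22, 28883572 to 29057488) had 256 implied reads in OLO and 261 in OZO. The log2 fold change was 0.030 (standard error 0.24, adjusted p 0.943 by limma's test). The 95% interval allows between 66.8% and 156% of the OLO level. RNF43 (chromosome 17, 58352500 to 58417534) had 1.75 implied reads in OLO and 2.49 in OZO. Both values are under the floor, so no fold is given and a difference in RNF43 was not detectable at this depth. ZNRF3 was thus the member of the pair that these cells expressed at a level the libraries could measure. Among the R-spondin receptors LGR4 had 326 and 236 implied reads, at a log2 fold change of −0.47 ± 0.29 (SE), and LGR5 had 4.30 and 2.63.

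AXIN2 and NKD1, the feedback genes inside the cell, were not called. AXIN2 (chromosome 17, 65528563 to 65561648) is a scaffold of the β-catenin destruction complex. Its level was 22.2 implied reads in OLO and 19.5 in OZO. The log2 fold change was −0.18 with a standard error of 0.41, and the 95% interval from −1.23 to 0.86 spans 42.7% to 182% of the OLO level (adjusted p-value 0.786 in limma's test). NKD1 (chromosome 16, 50548396 to 50649249), which binds Dishevelled, had 44.1 implied reads in OLO and 45.3 in OZO. For NKD1 the log2 fold change was 0.039 (standard error 0.37), and its interval spans 53.6% to 197% (adjusted p-value 0.951 in limma's test). A 4-fold change of either gene lies outside these intervals. For AXIN2 a 2-fold fall lies inside its interval, and for NKD1 it lies just outside.

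**Figure D3:**
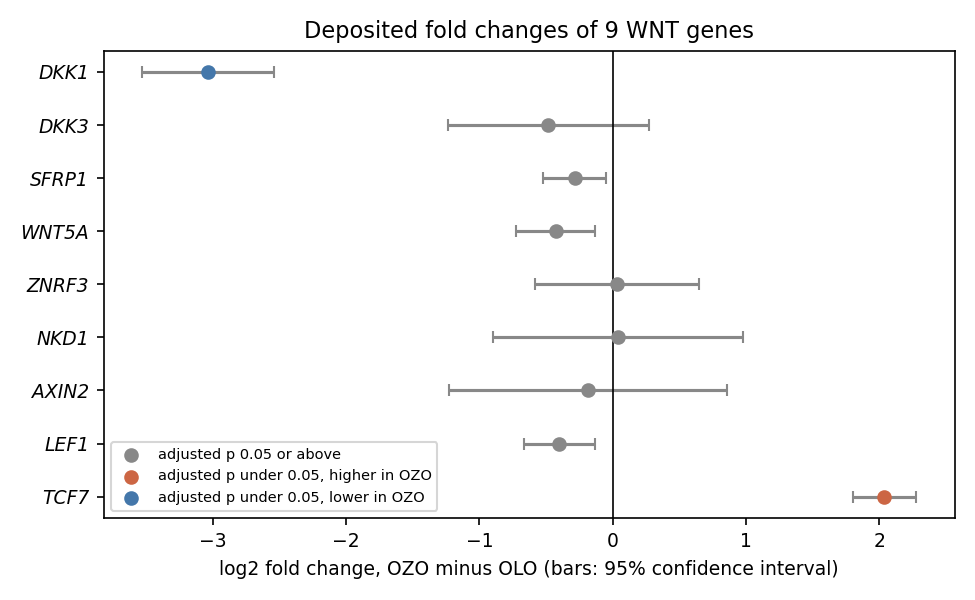
Deposited log2 fold change (OZO minus OLO) of the 9 well-read members, with 95% confidence intervals from limma's moderated t as bars; RNF43, at the floor in both groups, is left out. The intervals of DKK1 and TCF7 stand clear of 0, those of SFRP1, WNT5A and LEF1 lie just below it, and those of DKK3, ZNRF3, NKD1 and AXIN2 hold 0.

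Of the TCF/LEF factors of the set, TCF7 rose and LEF1 was not called. TCF7 (chromosome 5, 134108218 to 134148210), which encodes TCF1, had 38.0 implied reads in OLO and 157 in OZO. This was a 4.10-fold rise (95% interval 3.48-fold to 4.84-fold), with a log2 fold change of 2.04 (SE 0.093, adjusted p 0.00296 by limma's test). By p-value TCF7 was number 23 of 28395 genes, and by size of rise it was number 79 of the 13773 well-read genes. LEF1 (chromosome 4, 108047548 to 108168932), which is both a partner and a target of β-catenin, had 461 implied reads in OLO and 349 in OZO. Its log2 fold change was −0.40 (standard error 0.10, 95% interval −0.67 to −0.14, adjusted p-value 0.102 in limma's test). LEF1 was therefore the member nearest to the threshold among those not called.

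The summed level of the TCF/LEF family was nearly equal in both groups while its make-up differed. TCF7, TCF7L1, TCF7L2 and LEF1 together had 362 implied reads per kilobase in OLO and 361 in OZO. TCF7L2, the most abundant of them, had 878 implied reads in OLO and 876 in OZO, at a log2 fold change of −0.0033 ± 0.14 (SE), and accounted for 59.5% and 59.4% of the sum. The TCF7 share was 3.20% in OLO and 13.3% in OZO, and the LEF1 share was 35.6% and 27.0%. TCF7L1, often a repressor, had 18.0 and 3.17 implied reads, and its log2 fold change was −2.33 (standard error 1.25, adjusted p 0.249 by limma's test). Despite its fold change TCF7 stayed below TCF7L2 and LEF1 per kilobase in OZO.

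**Figure D4:**
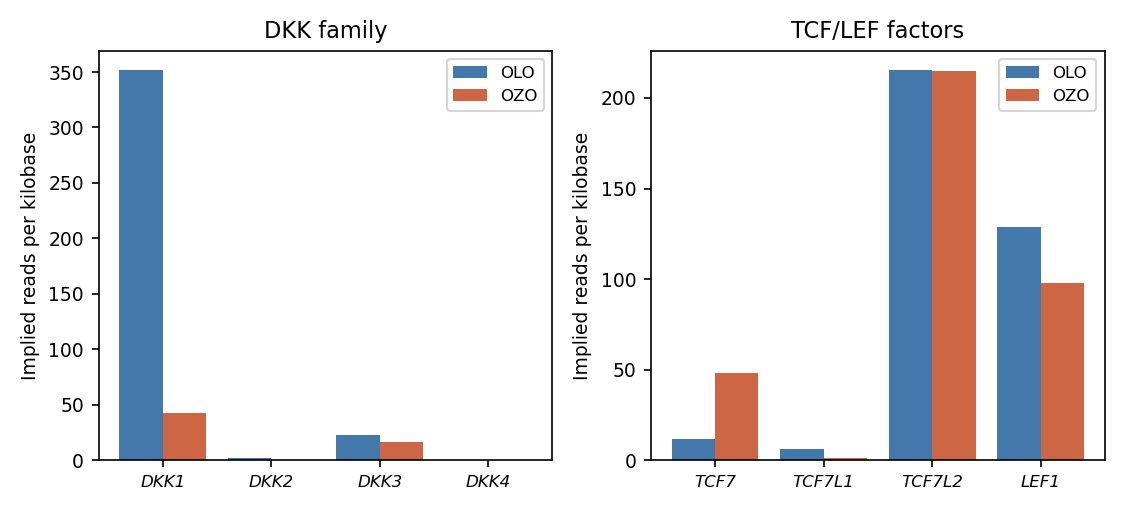
Implied reads per kilobase of canonical transcript in OLO (blue bars) and OZO (orange bars) for the DKK family (left) and the TCF/LEF factors (right), with axes from 0 and no error bars because levels of single libraries are not in the table. DKK1 drops from 352 to 42.6 and remains the highest of its family, and TCF7 goes from 11.6 to 47.9 below TCF7L2 and LEF1.

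Across all 10 members, the order of levels per kilobase in OLO was SFRP1 (558), DKK1 (352), WNT5A (136), LEF1 (129), ZNRF3 (37.2), DKK3 (22.6), TCF7 (11.6), AXIN2 (5.21), NKD1 (2.59) and RNF43 (0.387). In OZO, SFRP1 stayed first with 458 implied reads per kilobase, followed by WNT5A with 101 and LEF1 with 97.6. DKK1 moved from number 2 to number 5 of this order and TCF7 from number 7 to number 4. TCF7 and DKK1 lay close together in OZO, at 47.9 and 42.6, and whether neighbours in the order differ beyond their spread could not be examined without levels of single libraries.

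The surroundings of DKK1 and TCF7 in the genome were examined next. In GENCODE 44 the gene body of TCF7 overlaps that of SKP1, on the opposite strand, by 2931 bases, whereas in RefSeq they do not overlap. SKP1, which encodes a subunit of SCF ubiquitin ligases, had 5438 implied reads in OLO and 6649 in OZO. It was called higher, at a log2 fold change of 0.29 (standard error 0.0245, adjusted p-value 0.00855 in limma's test). The libraries keep the strand, but the use of strand in counting was not stated, and the part of SKP1 in the TCF7 value was not tested. On the outer sides of TCF7, VDAC1 was called at a log2 fold change of 0.21 and PPP2CA, at 0.014, was not, so the nearest well-read genes had far smaller values than TCF7. The nearest well-read genes on either side of DKK1 were PRKG1, at a log2 fold change of −0.31 ± 0.21 (SE), and the long non-coding RNA LNCAROD, at −0.66 ± 0.70, and neither was called. CSTF2T, 615 kb before DKK1, was called lower at −0.62. In GENCODE the long non-coding RNA gene PRKG1-AS1, on the opposite strand, shares 227 bases with DKK1. PRKG1-AS1 was not matched to a gene with a deposited value. The antisense genes LEF1-AS1, which overlaps LEF1, and ZNRF3-AS1, which overlaps ZNRF3, were under the floor in both groups. RNF43 shares bases with TSPOAP1-AS1 on the opposite strand (6.14 and 1.35 implied reads), and in GENCODE DKK3 shares 5681 bases with USP47, also on the opposite strand, whose log2 fold change was 0.12. GENCODE further places a second protein-coding gene over AXIN2 and over RNF43 on the same strand. Neither was matched to a gene with a deposited value, and whether they were part of the counting, so that reads could be split or dropped there, is not known here.

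The other genes of the pathway were then set beside the members. Of 140 genes in 10 lists by role, the members included, 4 were called higher and 8 lower. Without the members this was 10 of 130 genes, or 7.69%, close to the background of 7.04%. Among well-read genes it was 10 of 82, or 12.2%, against 13.6%. The median log2 fold change of those 82 genes was −0.093, and that of the 13773 genes was −0.0061. With the median of the well-read genes as zero, 13 of the 140 were called, 5 higher and 8 lower. With the all-gene median as zero, which 7012 genes without a read move to 0.19, 25 were called, 3 higher and 22 lower. Lower calls thus outnumbered higher calls at each of these zero points. The number of lower calls rose from 8 to 22 where genes without a read helped to set the zero.

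Of the 16 receptors and co-receptors, 13 were well read and 3 were called. That was 23.1% of the well-read ones, against 13.6% of all well-read genes. With so few genes, nothing is read from this share or from those of the lists below. FZD1 and FZD2 were lower, with log2 fold changes of −0.63 (standard error 0.083) and −1.15 (standard error 0.21). FZD1 had 529 implied reads in OLO and 342 in OZO, and FZD2 had 121 and 54.2. FZD5 was higher, with 207 and 305 implied reads and a log2 fold change of 0.56 (standard error 0.065). The summed level of the 10 Frizzled genes was 900 implied reads per kilobase in OLO and 873 in OZO, and FZD6 alone held 62.2% and 65.4% of it. The co-receptor LRP6, on which DKK1 acts, had 3131 and 3528 implied reads, and RYK had 2375 and 2376, and neither was called. WLS and PORCN, which are needed for ligand secretion, had log2 fold changes of 0.095 and −0.22 and were not called either.

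In the list of the β-catenin complex, all 16 genes were well read and 2 were called, both tankyrases and both higher. Their share, 12.5%, was close to the 13.6% of all well-read genes. TNKS and TNKS2 mark AXIN proteins for degradation. TNKS had 1718 implied reads in OLO and 2745 in OZO and a log2 fold change of 0.68 (standard error 0.059, adjusted p-value 0.00982 in limma's test). TNKS2 had 3058 and 3941 and a log2 fold change of 0.37 (standard error 0.044, adjusted p-value 0.0169 in limma's test). The TNKS2 call was lost with the all-gene median as zero and kept with the median of the well-read genes as zero. CTNNB1, which encodes β-catenin itself, had 7734 and 8050 implied reads and a log2 fold change of 0.058 ± 0.059 (SE), and CSNK1A1, a kinase of the complex, had 0.037 (standard error 0.049). None of the 12 genes for Dishevelled and its regulators was called, and DVL2 and DVL3 had log2 fold changes of 0.072 and 0.22.

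Among nuclear partners, BCL9L and PYGO2 stood at nearly equal fractions of their OLO levels. Both proteins belong to the chain that links β-catenin to chromatin. BCL9L had 1281 implied reads in OLO and 640 in OZO, with a 95% interval of 47.1% to 53.1% of the OLO level and an adjusted p-value of 0.00163 in limma's test. PYGO2 had 1306 and 656 implied reads, with a 95% interval of 41.1% to 61.6% and an adjusted p-value of 0.0156 in limma's test. TLE5, a co-repressor relative, had a log2 fold change of −0.010. Of the 12 well-read genes of this list, 1 was called higher (TCF7) and 2 lower (BCL9L and PYGO2), and 9 were not called. The called share was 25%, with the member TCF7 included, against 13.6% of all well-read genes. The median of the 12 well-read genes was −0.29, against −0.0061 for the 13773 well-read genes.

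Of the planar polarity genes, which serve WNT signals that do not use β-catenin, VANGL1 and PRICKLE2 were called lower. They were 2 of 11 genes, all well read, or 18.2% against 13.6% of all well-read genes. VANGL1 had 1616 implied reads in OLO and 955 in OZO and a log2 fold change of −0.76 (standard error 0.11). PRICKLE2 had 26.9 and 8.62 and a log2 fold change of −1.59 (standard error 0.28). DAAM1 and CELSR1 were not called, at −0.091 and −0.22. Among 20 further target genes, 14 of them well read, CCND1, the cyclin D1 gene, was the one called. It made up 7.14% of the well-read ones, against 13.6% of all well-read genes. CCND1 had 4158 implied reads in OLO and 1945 in OZO. Its log2 fold change was −1.10 (standard error 0.12, adjusted p-value 0.0154 in limma's test). CCND1 is also a target of ERK and other pathways. CD44 and FOSL1 had log2 fold changes of 0.11 and −0.16 and were not called. MYC was not called either, with 155 implied reads in OLO and 65.8 in OZO. Its log2 fold change was −1.23 (standard error 0.28, adjusted p-value 0.0713 in limma's test). The 14 well-read genes of this list ran from −1.32 for SOX9 to 0.88 for ID2, with 6 positive and 8 negative values. Among the extracellular antagonists beyond the members, IGFBP4 and TRABD2A had log2 fold changes of −0.14 and −0.094 and were not called.

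**Figure D5:**
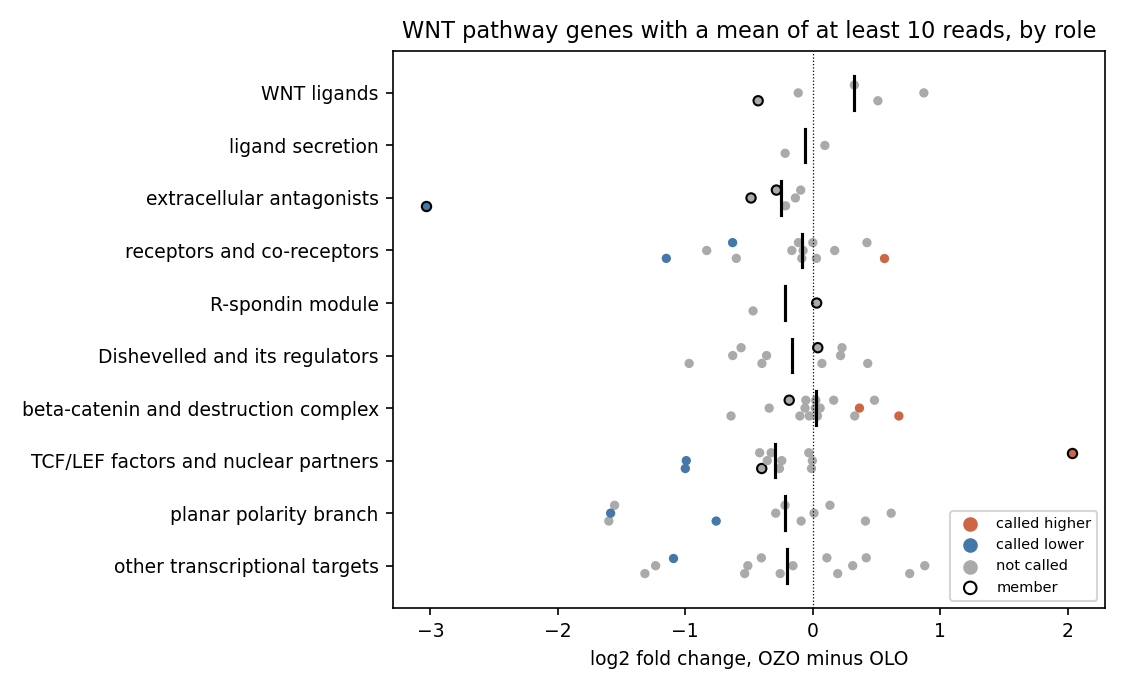
Log2 fold change (OZO minus OLO) of the 91 listed well-read WNT pathway genes, by role, with called genes in colour, members outlined, the median of each role as a black bar and points spread vertically for legibility only. DKK1 at −3.04 and TCF7 at 2.04 lie outside the range of −1.60 to 0.88 of the other genes.

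Genes with levels most like those of DKK1 were sought by the distance between pairs of log2 CPM levels, the level in OLO and the level in OZO. The 4 nearest well-read genes were SHROOM2, TRHDE-AS1, FAM200C and POU3F2, at distances of 0.98 to 1.13. SHROOM2, the nearest, had 465 implied reads in OLO and 141 in OZO and a log2 fold change of −1.72 (standard error 0.21). The log2 fold changes of the other 3 lay between −1.55 and −1.52, and POU3F2 was the 1 of the 4 that was not called. With only 2 levels per gene the measure describes a start and an end point.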

How the data were processed

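RNA-seq libraries of A375 cells (3 OLO, 3 OZO) were made with a directional kit. According to the study's methods and the submitters' processing notes, the authors aligned reads to hg38 with HISAT2 2.1.0, counted them with featureCounts 2.1.1 and fitted limma-voom 3.58.1. Normalization factors, filters and strand settings are not given in the sources used here. The deposited table holds log2 fold changes and mean log2 CPM. The deposited score is the moderated t, and the deposited p-value and adjusted p-value belong to it. It has no values of single libraries, so no test was run here and all tests across genes are the authors' limma fit.

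Standard errors are the fold change divided by t. Intervals use the degrees of freedom that connect t and p (5.02 to 5.24). Implied reads assume that the lowest mean is 0 reads and that voom added 0.5, and they ignore voom's weights. Procedures were tested on simulated data (Python 3.11.15, scipy 1.17.1). Positions are from RefSeq GRCh38.p14. The members and lists were chosen with earlier results of these data known. Named genes are the members, called and well-read (mean of 10 or more implied reads) list genes, up to 2 further genes per list by mean level, and the 5 genes nearest to DKK1, of which 1 is not reported here. TCF7L1, the other DKK genes, FZD6, FRAT2, MYC, SOX9, ID2, neighbouring genes and those in the closing section were named after their values were seen.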

Additional observations from a re-analysis of the deposited data

How the results depend on the processing

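No paired analysis was possible because the deposited table holds the comparison only. For the same reason no replicate was left out, and how far 1 library decides a value is not known here. The 2 called members were the same at adjusted p-values under 0.01 and under 0.1, with a 2-fold minimum, with adjustment over the 13773 well-read genes, and with their median as zero. Taking the all-gene median as zero, which 7012 genes without a read move to 0.19, gave 5 members and turned NKD1 to −0.15 and ZNRF3 to −0.16. Of the 12 pathway genes called, 4 passed a threshold of 0.01 and 6 a 2-fold minimum, and 25 were called with the all-gene median as zero. The other settings gave 13 to 18. RNF43 was under the floor of 3 reads in both groups, so depth limits what can be said of it.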

Other observations

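Some pathway genes outside the members had large fitted changes that did not pass, and they were picked after their values were seen. FRZB, a secreted relative of SFRP1, had 3.27 implied reads in OLO and 28.2 in OZO, a log2 fold change of 2.92 (standard error 0.62, adjusted p 0.0625 by limma's test). DKK2 had 6.30 implied reads in OLO and WNT5B had 3.72, and both were under the floor in OZO. Their adjusted p-values in limma's test were 0.147 for DKK2 and 0.184 for WNT5B.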
